A study of Mus musculus with 9 samples.

Results

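The genes described here carry glucose into the cell, break it down to pyruvate and lactate, or belong to the transcriptional response to low oxygen. Members were matched to the table by symbol. The list holds 38 symbols, which matched 39 rows among the 22322 genes of the expression table because Aldoa has 2 rows. Of these, 37 rows passed the filter on low counts and were tested, whereas Ldhb and Adm did not pass it.

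RNA sequencing was performed on mouse cells labelled as retinal ganglion cells (RGCs, the neurons that send the output of the retina to the brain), wild type by genotype, in 3 groups of 3 libraries. The normal group was grown in high-glucose medium with serum. The aging group received D-galactose, a sugar used to induce senescence in culture. The third group, aging RGCs + USCs medium, received D-galactose as well and then medium conditioned by human urine-derived stem cells (USCs), from which the USCs themselves had been removed. In what follows it is called the medium group. The cells came from a commercial supplier and were passaged with trypsin, and the 3 libraries of a group came from 3 replicate wells, so that the p-values measure the spread between wells. No library with unconditioned USC medium or with conditioned medium on normal cells was analysed here, and what the USCs release therefore cannot be told apart from the change of base medium. The sources used here do not state the age and sex of the source animals.

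Total expected counts were between 18189616 and 22342288 per library, and mitochondrial genes took 8.46% to 9.03% of them in the normal, 9.22% to 9.71% in the aging and 9.72% to 9.97% in the medium libraries. The cell type label was checked against 13 RGC markers. Only 5 of them (Rbpms, Nefl, Isl1, Map2 and Tubb3) reached 1 FPKM in every library, and Pou4f2 and Pou4f3 had 0 counts in all 9 libraries. The summed level of the 13 markers was 66.4 to 68.6 FPKM in the normal, 47.5 to 51.2 FPKM in the aging and 47.3 to 52.1 FPKM in the medium libraries, while 9 macrophage markers, mainly Cd68, summed to 44.7 to 54.4, 35.8 to 39.6 and 23.6 to 39.8 FPKM. Of these 9, only Cd68 reached 1 FPKM in every library, at 22.28 to 35.84 FPKM. Lyz2 was 9.05 FPKM in medium replicate 3, against 1.68 and 0.72 FPKM in medium replicates 1 and 2. The near-equal RGC sums of the aging and medium groups hid single markers that differed, since Nefl was 11.01 to 12.43 FPKM in the aging and 4.55 to 5.16 FPKM in the medium libraries and Tubb3 1.23 to 1.71 and 10.4 to 11.4 FPKM. Thy1 did not exceed 0.03 FPKM in any library. Sums of mesenchymal and epithelial markers were far higher. In the normal, aging and medium libraries 7 mesenchymal markers, mainly Vim, took 1007 to 1040, 1071 to 1111 and 949 to 992 FPKM. The 6 epithelial markers, mainly Krt8, Krt18 and Krt19, took 656 to 711, 636 to 654 and 682 to 709 FPKM. Only 4 of the 7 mesenchymal and 3 of the 6 epithelial markers reached 1 FPKM in every library. Col1a2 and Acta2 did not exceed 0.38 FPKM, and Cdh1 and Cldn4 did not exceed 0.12 FPKM. Other sums were not far higher, as 6 glial markers, mainly Glul, took 35.01 to 49.49 FPKM and 7 photoreceptor markers at most 0.62 FPKM. In the medium libraries the glial sums (44.6 to 49.5 FPKM) overlapped the RGC sums (47.3 to 52.1 FPKM). The part of these shifts in the differences below was not tested. In bulk RNA, fewer cells of a type and less RNA per cell cannot be told apart.

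Glycolysis begins with the uptake and phosphorylation of glucose. Its preparatory phase spends ATP to make triose phosphates, and its payoff phase recovers ATP and ends at pyruvate, which is either reduced to lactate and exported or passed into mitochondria. The hypoxia-inducible factors (HIF) are heterodimers of an oxygen-regulated alpha subunit and ARNT. In the presence of oxygen, EGLN prolyl hydroxylases mark the alpha subunit for destruction through VHL, so that the protein is set mainly by its stability, which RNA sequencing does not measure. HIF binds the hypoxia response element, whose core is ACGTG or GCGTG, and is known to drive most glycolytic genes as well as angiogenic, mitophagy and pH-regulating genes. The retina is known for a high rate of glycolysis even when oxygen is present.

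Promoters were read from RefSeq (GRCm38.p6) as 250 bases before to 50 bases after the start of transcription. A total of 34 members matched, with 50 promoters between them. Slc2a3, Bnip3l, Epas1 and Ndrg1 had no entry in the table. Both strands were searched for the letters ACGTG and GCGTG, so that CACGT and CACGC are the same cores on the other strand, and CACGTG counts as 2 overlapping matches. ACGTG was found in 26 of the 50 member promoters (52%), compared with 25.2% of the promoters of genes tested and 19.6% of all promoters of this length. GCGTG was found in 28 of them (56%), compared with 50.4% and 32.4%. Either core was found in 39 of the 50 (78%), compared with 61.8% of the promoters of genes tested. By gene, a share that rises with the number of promoters per gene, 31 of the 34 members (91.2%) held a match in at least 1 promoter, compared with 67.9% of genes tested. These are matches of letters, not evidence of binding. Shown here are 6 promoters with the cores in capitals, for genes with several promoters the one with most matches, for members on which the results below turn: the lactate enzyme gene Ldha, the flux regulators Pfkfb3 and Pdk1, and Egln3, Car9 and Kdm3a among the hypoxia-response genes. They lie at chr7:46845554-46845853 (plus strand, Ldha), chr2:11502041-11502340 (minus strand, Pfkfb3), chr2:71872974-71873273 (plus strand, Pdk1), chr12:54203825-54204124 (minus strand, Egln3), chr4:43506776-43507075 (plus strand, Car9) and chr6:71632868-71633167 (minus strand, Kdm3a), and each is written 5′ to 3′ on the strand of its gene.
Ldha: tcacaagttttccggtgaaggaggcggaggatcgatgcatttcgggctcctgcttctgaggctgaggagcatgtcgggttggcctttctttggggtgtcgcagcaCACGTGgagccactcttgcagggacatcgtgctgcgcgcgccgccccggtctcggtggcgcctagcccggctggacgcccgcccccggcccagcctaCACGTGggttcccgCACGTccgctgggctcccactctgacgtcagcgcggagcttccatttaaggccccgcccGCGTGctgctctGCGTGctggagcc
Pfkfb3: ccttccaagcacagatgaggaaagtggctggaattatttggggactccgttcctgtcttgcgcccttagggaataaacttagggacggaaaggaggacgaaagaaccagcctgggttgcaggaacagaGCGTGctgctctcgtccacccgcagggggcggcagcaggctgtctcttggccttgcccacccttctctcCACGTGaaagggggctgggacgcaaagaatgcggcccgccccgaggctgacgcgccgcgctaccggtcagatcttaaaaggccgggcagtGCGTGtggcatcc
Pdk1: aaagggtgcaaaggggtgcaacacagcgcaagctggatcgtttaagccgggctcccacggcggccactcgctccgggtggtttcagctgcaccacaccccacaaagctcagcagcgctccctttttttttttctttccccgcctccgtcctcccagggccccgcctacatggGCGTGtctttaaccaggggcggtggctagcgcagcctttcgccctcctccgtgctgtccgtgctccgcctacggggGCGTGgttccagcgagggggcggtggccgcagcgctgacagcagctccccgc
Egln3: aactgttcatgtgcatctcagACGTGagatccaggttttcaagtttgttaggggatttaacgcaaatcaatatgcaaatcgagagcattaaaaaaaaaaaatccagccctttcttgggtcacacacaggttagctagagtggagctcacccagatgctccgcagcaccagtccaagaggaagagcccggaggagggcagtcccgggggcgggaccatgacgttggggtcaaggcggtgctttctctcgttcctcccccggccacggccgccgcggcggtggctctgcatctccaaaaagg
Car9: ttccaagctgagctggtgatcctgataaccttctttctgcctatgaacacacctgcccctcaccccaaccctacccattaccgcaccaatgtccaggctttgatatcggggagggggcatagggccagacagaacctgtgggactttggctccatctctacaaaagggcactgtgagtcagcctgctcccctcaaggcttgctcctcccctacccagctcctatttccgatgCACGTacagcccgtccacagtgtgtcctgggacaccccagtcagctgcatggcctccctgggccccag
Kdm3a: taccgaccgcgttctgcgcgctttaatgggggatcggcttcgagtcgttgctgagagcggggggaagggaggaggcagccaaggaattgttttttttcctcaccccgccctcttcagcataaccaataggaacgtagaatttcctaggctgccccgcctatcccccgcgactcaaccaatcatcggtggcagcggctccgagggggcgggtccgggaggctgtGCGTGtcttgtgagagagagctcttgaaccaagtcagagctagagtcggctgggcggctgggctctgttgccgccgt
Of the promoters shown, that of Ldha held 7 matches and that of Pfkfb3 held 4, whereas 2 were found for Pdk1 and 1 each for Egln3, Car9 and Kdm3a. The promoters not shown held 2 matches for Ldha, 1 for Pfkfb3 and 0 for Pdk1 and for both others of Kdm3a.

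The members spanned a wide range of levels. Gapdh, Eno1, Ldha and Pkm were each above 1000 FPKM (fragments scaled by transcript length and library size) in every library, and by mean FPKM they ranked 10, 20, 18 and 27 among all genes. At the other end, Slc2a3, Ldhb and Adm stayed below 1 FPKM in every library. The median member tested had 74.9 FPKM over the 9 libraries, compared with 11.1 FPKM for all genes tested, and at such counts small differences pass a test more easily. Summed over all 38 members, the level was 11294, 11395 and 11721 FPKM in the normal libraries, 12750.0, 12926 and 12753 FPKM in the aging libraries and 12051, 12422 and 12029 FPKM in the medium libraries. On this scale, the aging libraries thus lay above both other groups. As a share of the total FPKM of a library, the members took 2.33% to 2.4% in the normal, 2.59% to 2.66% in the aging and 2.4% to 2.45% in the medium libraries, so that normal and medium met.

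**Figure D1:**
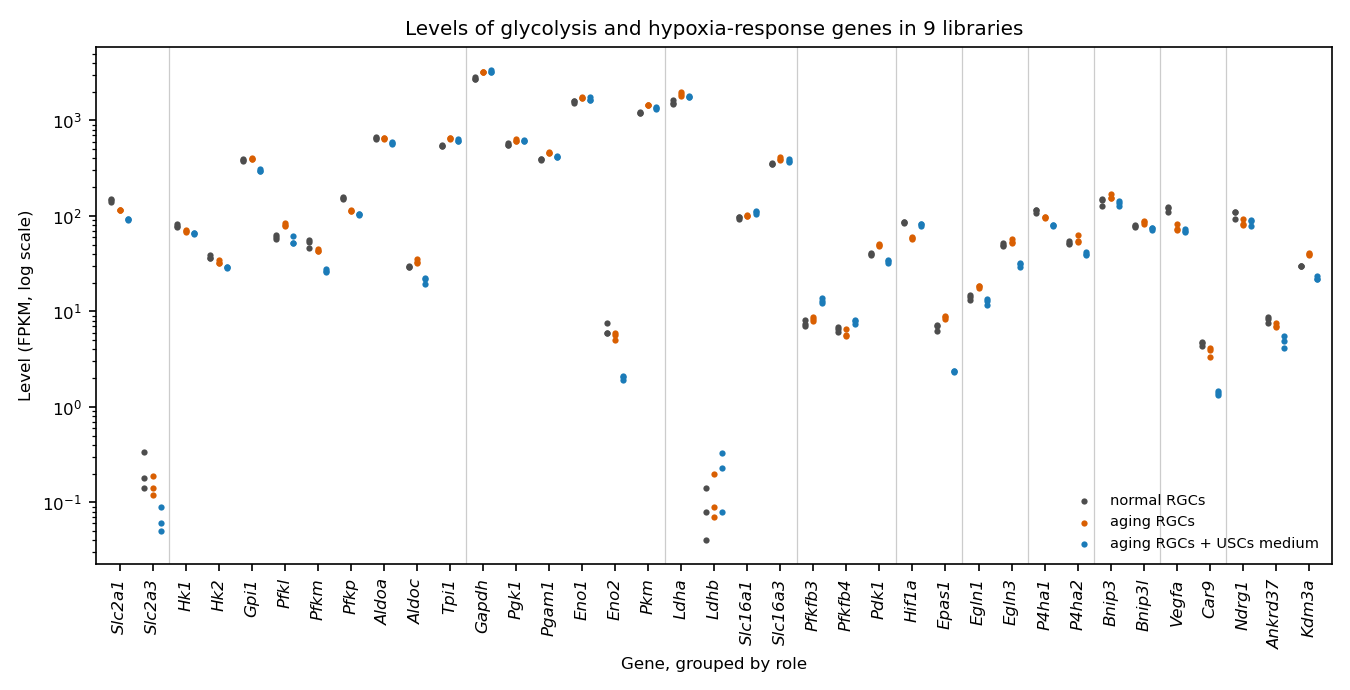
Level of 37 members in FPKM (log scale) in each of the 9 libraries, with genes on the horizontal axis grouped by role and colour marking the group (Adm, listed at 0 in most libraries, and the second Aldoa row are not drawn). Gapdh, Eno1, Ldha and Pkm lie above 1000 FPKM in every library, and Slc2a3 and Ldhb lie below 1 FPKM.

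Compared with normal RGCs, aging RGCs had more RNA of 5 of 6 genes of the payoff phase of glycolysis, of Ldha and both lactate transporters and of the EGLN hydroxylases, and less of Hif1a, Vegfa, Slc2a1 and Pfkp. The calls of the transporter Slc16a1 and of Egln3 were lost with limma on log2 FPKM. Of the 37 rows tested, 19 rose and 10 fell with an adjusted p below 0.05 (quasi-likelihood test of edgeR, Benjamini-Hochberg over 12145 genes), that is 78.4% of them. Of all genes tested 46.5% passed, 23.6% upward and 23% downward. The differences were small. Here and below, a difference given with a standard error is a log2 fold change from the same fit. The median log2 fold change of the members was 0.14 (all genes, 0.002), and the median of its absolute value was 0.25 (all genes, 0.18). Vegfa was the 1 member called lower by at least 1.5-fold, a line that 4.82% of all genes passed.

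Compared with aging RGCs, the medium group had less RNA of 10 of 13 hypoxia-response members and of 5 enzymes of the preparatory phase of glycolysis, while Hif1a, Pfkfb3 and Pfkfb4 were higher. Of the 37 rows, 6 were upregulated and 18 downregulated, together 64.9%. Of all genes 53.1% passed, 27.1% upward and 26% downward. The median log2 fold change was -0.12 (all genes, -0.007) and the median absolute value 0.19 (all genes, 0.21). Epas1, Car9 and Eno2 were lower by at least 2-fold, as were 4.21% of all genes. At 1.5-fold, 1 member (Pfkfb3) was higher and 6 were lower, where 3.47% and 8.34% of all genes were. The split depended on scaling: without normalization factors 4 members were upregulated and 26 downregulated. Aldoa, Pfkp, Tpi1, Pgam1, Pkm, Ldha, Slc16a3 and Vegfa, not called with them, were then called lower, with log2 fold changes of -0.0711 (Tpi1) to -0.1583 (Vegfa).

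Between the medium and normal groups, 5 of 6 genes of the payoff phase of glycolysis, Ldha and both lactate transporters were higher in the medium group, and Slc2a1, Slc2a3 and 9 of 13 hypoxia-response members were lower. Of these calls, that of the transporter Slc16a3 was lost without normalization factors (0.0587, adjusted p = 0.133) and with limma on log2 FPKM (adjusted p = 0.0535 and 0.0521 with pseudocounts of 1 and 0.1). In all, 11 rows were upregulated and 20 downregulated, together 83.8%. Of all genes 60.5% passed, 30.6% upward and 29.9% downward. The median log2 fold change was -0.11 (all genes, -0.013) and the median absolute value 0.295 (all genes, 0.252). Slc2a3, Eno2, Epas1 and Car9 were lower by at least 2-fold, as were 5.24% of all genes. At 1.5-fold, 1 member (Pfkfb3) was higher and 8 were lower, where 4.57% and 11% of all genes were. The 3 comparisons share libraries in pairs and are therefore not independent of one another.

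**Figure D2:**
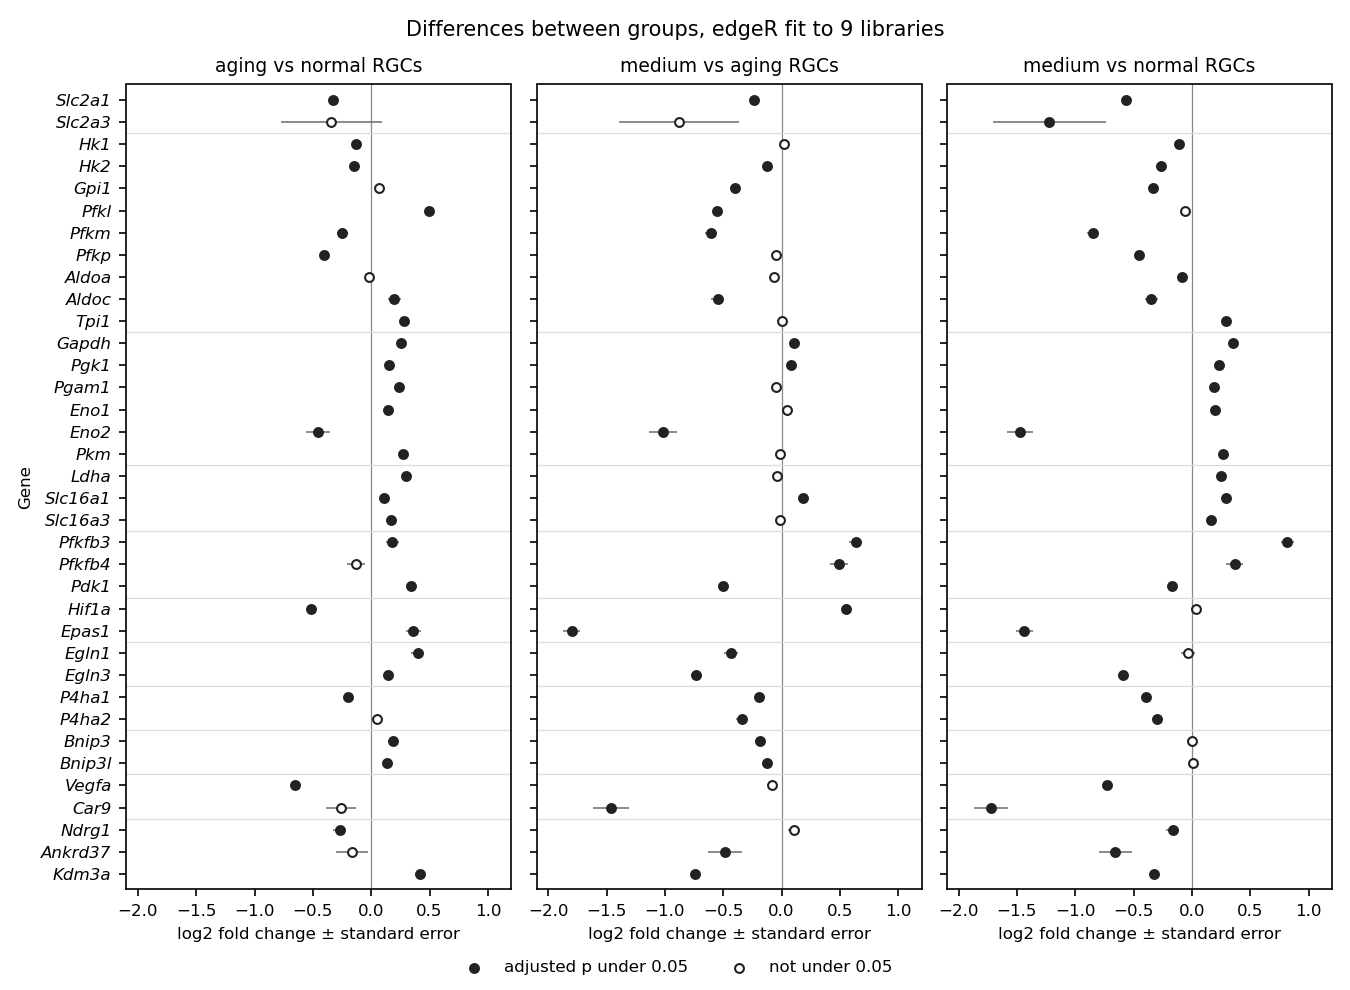
Log2 fold change with its standard error for the 36 member symbols tested, in aging vs normal, medium vs aging and medium vs normal RGCs (filled circles, adjusted p below 0.05, edgeR; grey lines separate roles; the second Aldoa row is not drawn). In medium vs aging RGCs, Epas1 (-1.80), Car9 (-1.46) and Eno2 (-1.02) lie furthest to the left and Pfkfb3 (0.64) furthest to the right.

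Glucose uptake was represented by Slc2a1, which encodes the ubiquitous transporter GLUT1, and Slc2a3, which encodes the neuronal transporter GLUT3. Slc2a1 was measured at 423, 441 and 436 CPM in the normal libraries, 335, 349.9 and 348 CPM in the aging libraries and 290.0, 298 and 291 CPM in the medium libraries (CPM, counts scaled to library size after TMM normalization). The 3 groups did not overlap, and the level was lowest in the medium group. On the log2 scale, the fold change was -0.33 ± 0.032 (SE, adjusted p = 1.4e-09) in aging vs normal, -0.23 ± 0.032 (SE, adjusted p = 6.4e-07) in medium vs aging and -0.56 ± 0.032 (SE, adjusted p = 9.97e-15) in medium vs normal RGCs. Slc2a3 was close to the detection limit, at 0.693, 0.678 and 0.543 CPM in the normal libraries, 0.487, 0.464 and 0.557 CPM in the aging libraries and 0.257, 0.199 and 0.358 CPM in the medium libraries, or 4 to 16 counts per library. It was called only in medium vs normal RGCs, at -1.22 ± 0.48 (SE, adjusted p = 0.0312), and that call was lost when normal replicate 1 or 2 or medium replicate 1 or 2 was left out (adjusted p between 0.0764 and 0.111). The Slc2a3 call was also lost with DESeq2 (adjusted p = 0.0951) and with no filter on low counts (0.0994). Measured per length, Slc2a3 stood at 0.000536 to 0.00229 of Slc2a1 in the 9 libraries, so that GLUT1 accounted for nearly all the RNA of this pair.

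The preparatory phase of glycolysis had 9 genes. In aging vs normal RGCs 3 of them rose (Pfkl, Aldoc and Tpi1) and 4 fell (Hk1, Hk2, Pfkm and Pfkp), as did 23.6% and 23% of all genes. In medium vs aging RGCs 5 fell (Hk2, Gpi1, Pfkl, Pfkm and Aldoc) and the other 4 did not pass the test. With the second Aldoa row included, 50% of the rows passed, near the 53.1% of all genes, of which 26% were lower. Hk1 and Hk2, the hexokinases that trap glucose as its phosphate, differed little: Hk2 had means of 199.5 ± 8.66 CPM in the normal, 180.0 ± 7.32 CPM in the aging and 166 ± 2.62 CPM in the medium group (SD, n = 3). Its decrease in medium vs aging RGCs, -0.12 ± 0.039 (SE, adjusted p = 0.00998), was not called without aging replicate 2 (adjusted p = 0.104) or medium replicate 3 (0.0547). Hk1 fell by 0.13 in aging and by 0.11 in medium vs normal RGCs on the log2 scale, the latter with an adjusted p of 0.0529 without normal replicate 3. Gpi1, the isomerase that makes fructose 6-phosphate, was lower in the medium group than in aging RGCs, at -0.40 ± 0.029 (SE, adjusted p = 2.48e-12).

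Phosphofructokinase, the committed step, is encoded by Pfkl (liver type), Pfkm (muscle type) and Pfkp (platelet type), and these differed from one another. Pfkl was measured at 184, 181 and 186 CPM in the normal libraries, 268, 251 and 259.8 CPM in the aging libraries and 170.5, 182 and 178 CPM in the medium libraries. The aging libraries lay above both other groups, with log2 fold changes of 0.50 ± 0.036 (SE, adjusted p = 3.91e-12) in aging vs normal and -0.55 ± 0.036 (SE, adjusted p = 3.09e-13) in medium vs aging RGCs. Pfkm stood at 154, 128 and 146 CPM in the normal libraries, 120.1, 119.6 and 122 CPM in the aging libraries and 82.3, 76.8 and 78.5 CPM in the medium libraries. It was lowest in the medium group without overlap, at -0.60 ± 0.051 (SE, adjusted p = 6.8e-11) against aging and -0.85 ± 0.050 (SE, adjusted p = 1.9e-14) against normal RGCs. Pfkp, whose counts include reads shared with other loci, fell in aging vs normal RGCs, at -0.41 ± 0.031 (SE, adjusted p = 1.59e-11), and in medium vs aging RGCs its log2 fold change was -0.044 ± 0.032 (SE, adjusted p = 0.246). As shares of the summed FPKM of the 3 isoforms, Pfkl took 22.5%, 23.9% and 21.5% in the normal, 33.6%, 33.9% and 35% in the aging and 28.5%, 28.6% and 31.7% in the medium libraries, and Pfkp took 56.6% to 58.7%, 46.8% to 48.4% and 54.6% to 57.3%. Pfkp was thus the most abundant isoform in all 9 libraries. The summed level of the 3 genes was 262 to 268 FPKM in the normal, 234 to 243 FPKM in the aging and 182 to 193 FPKM in the medium libraries.

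Aldolase splits fructose 1,6-bisphosphate. Aldoa, the most abundant gene of the preparatory phase by mean FPKM over the 9 libraries although Tpi1 was higher in the aging and medium groups, was measured at 953, 905 and 944 CPM in the normal libraries, 925, 911 and 922 CPM in the aging libraries and 860.5, 915 and 866 CPM in the medium libraries, and its groups were close. Only medium vs normal RGCs gave a call, -0.086 ± 0.031 (SE, adjusted p = 0.0175), which was lost without normal replicate 1 or 3 or medium replicate 1 or 3 (adjusted p 0.0504 to 0.1). The second Aldoa row (chr7:126800790-126809108) stayed below 0.7 CPM and was not called. Aldoc, the brain-type aldolase, had 56.0, 56.9 and 57.3 CPM, 67.5, 64.5 and 63.5 CPM and 40.5, 46.5 and 46.6 CPM in the normal, aging and medium libraries. It rose by 0.20 ± 0.053 (SE, adjusted p = 0.00291) in aging vs normal RGCs, and in medium vs aging RGCs the log2 fold change was -0.55 ± 0.055 (SE, adjusted p = 2.08e-09). Tpi1, which interconverts the triose phosphates, rose in aging vs normal RGCs by 0.28 ± 0.031 (SE, adjusted p = 2.07e-08) on the log2 scale, and the medium group was higher than normal RGCs by 0.29 ± 0.031 (SE, adjusted p = 5.21e-09).

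In the payoff phase of glycolysis, 5 of 6 genes were upregulated in aging vs normal RGCs, namely Gapdh, Pgk1, Pgam1, Eno1 and Pkm, with log2 fold changes of 0.15 to 0.28, and Eno2 was downregulated. Of all genes, 23.6% were upregulated and 23% downregulated. Gapdh, the triose dehydrogenase often used as a reference gene, stood at 3668, 3698 and 3887 CPM in the normal libraries, 4429, 4468 and 4490.0 CPM in the aging libraries and 4761, 4912 and 4717 CPM in the medium libraries. Each aging library lay above each normal library and each medium library above each aging library. The log2 fold change was 0.25 ± 0.027 (SE, adjusted p = 1.32e-08) in aging vs normal and 0.10 ± 0.027 (SE, adjusted p = 0.0019) in medium vs aging RGCs, and the latter call was lost without normalization factors (0.0257, adjusted p = 0.398). It was also lost with limma on log2(FPKM + 1) or log2(FPKM + 0.1) (adjusted p = 0.56 and 0.542). Pkm, which encodes pyruvate kinase, rose by 0.28 ± 0.027 (SE, adjusted p = 2e-09) in aging vs normal RGCs and had -0.011 ± 0.027 (SE, adjusted p = 0.764) in medium vs aging RGCs, which became -0.0892 (adjusted p = 0.00386) without normalization factors and -0.0984 (adjusted p = 0.0203) with limma on log2(FPKM + 1). For Pgam1, phosphoglycerate mutase, the corresponding values were 0.24 ± 0.029 (SE, adjusted p = 1.17e-07) and -0.050 ± 0.029 (SE, adjusted p = 0.145), the latter becoming -0.1288 (adjusted p = 0.00032) without factors. Pgk1, the first ATP-yielding enzyme, and Eno1, the ubiquitous enolase, rose by 0.15 ± 0.031 (SE, adjusted p = 0.000151) and 0.15 ± 0.030 (SE, adjusted p = 0.000158) in aging vs normal RGCs. For Pgk1 a further difference of 0.077 ± 0.031 (SE, adjusted p = 0.036) in medium vs aging RGCs was not called without aging replicate 2 or 3 or medium replicate 2 (adjusted p 0.0942 to 0.134) and turned to -0.0015 without normalization factors.

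Eno2, the neuronal enolase (GRCm38, chr6:124760053-124769673), went against its group. It was measured at 13.3, 13.9 and 14.3 CPM in the normal libraries, 10.3, 9.53 and 10.5 CPM in the aging libraries and 5.19, 4.71 and 5.07 CPM in the medium libraries. The 3 groups did not overlap, and the medium libraries held the lowest level. Its log2 fold change was -0.46 ± 0.10 (SE, adjusted p = 0.000528) in aging vs normal, -1.02 ± 0.12 (SE, adjusted p = 2.91e-08) in medium vs aging and -1.47 ± 0.11 (SE, adjusted p = 5.3e-12) in medium vs normal RGCs. The first of these was not called by limma on log2(FPKM + 1), at -0.17 (adjusted p = 0.182). Eno2 was a minor enolase here: its FPKM was 0.00371 to 0.00474 of that of Eno1 in the normal, 0.00297 to 0.00349 in the aging and 0.00116 to 0.0013 in the medium libraries.

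The summed FPKM of the 9 genes of the preparatory phase was 1976 to 2013 in the normal, 2057 to 2064 in the aging and 1763 to 1829 in the medium libraries. For the 6 genes of the payoff phase it was 6408 to 6600 in the normal, 7416 to 7489 in the aging and 7203 to 7535 in the medium libraries. The medium libraries were therefore below normal in the preparatory phase and above normal in the payoff phase, without overlap in either. With 3 libraries against 3, the smallest p an exact permutation test allows is 0.1, and these sums and ratios are given without a test.

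**Figure D3:**
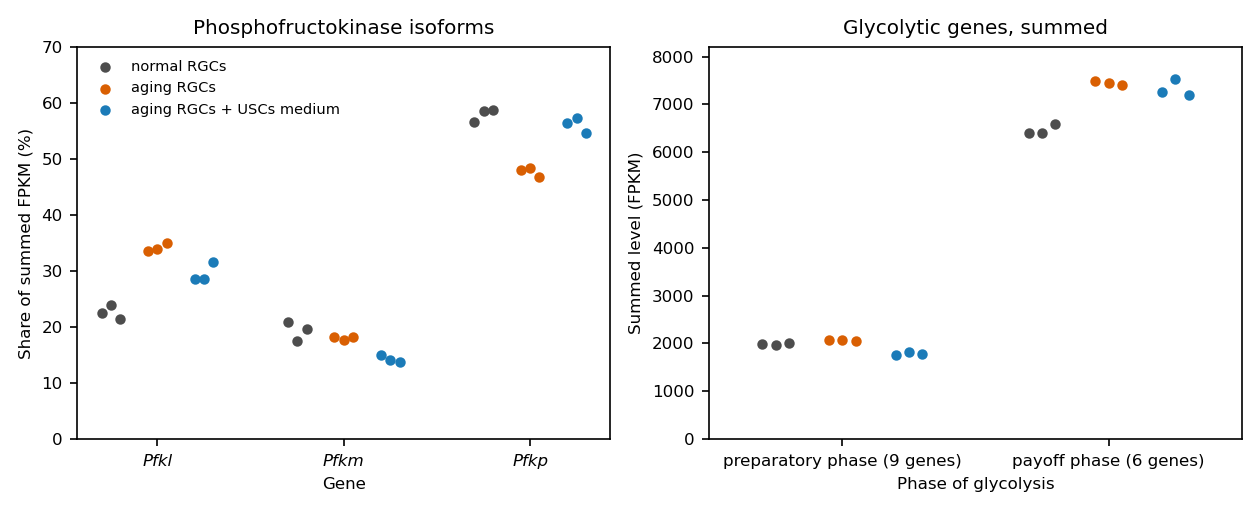
Left, share of each phosphofructokinase gene in the summed FPKM of the 3 (%), and right, summed FPKM of the preparatory and payoff phases of glycolysis, with 1 point per library and colour marking the group. Pfkl takes 21.5% to 23.9% in the normal and 33.6% to 35% in the aging libraries, and the payoff phase sums to 6408 to 6600 FPKM in the normal and 7416 to 7489 FPKM in the aging libraries.

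Lactate is made by lactate dehydrogenase and leaves through monocarboxylate transporters. Ldha, the subunit that favours lactate formation, stood at 1970.0, 1941 and 2073 CPM in the normal libraries, 2418, 2501 and 2424 CPM in the aging libraries and 2383, 2432 and 2312 CPM in the medium libraries. All aging and medium libraries lay above the normal ones, and aging and medium overlapped. It was upregulated by 0.30 ± 0.029 (SE, adjusted p = 2.67e-09) in aging and 0.25 ± 0.029 (SE, adjusted p = 1.99e-08) in medium vs normal RGCs. Ldhb, the subunit that favours pyruvate, had at most 9 counts in any library and was not tested. The importer and exporter Slc16a1 (MCT1) rose by 0.11 ± 0.033 (SE, adjusted p = 0.00762) in aging vs normal and again by 0.18 ± 0.033 (SE, adjusted p = 3.46e-05) in medium vs aging RGCs. The former was not called by limma on log2(FPKM + 1) or log2(FPKM + 0.1) (adjusted p = 0.0571 and 0.0606). The exporter Slc16a3 (MCT4), whose counts include shared reads, was 3.45 to 4.11 times as abundant as Slc16a1 by FPKM and rose by 0.17 ± 0.035 (SE, adjusted p = 0.000168) in aging vs normal RGCs.

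Of the flux regulators, Pfkfb3 and Pfkfb4 encode enzymes that make and remove fructose 2,6-bisphosphate, the activator of phosphofructokinase, and Pdk1 encodes a kinase that switches off pyruvate dehydrogenase. Pfkfb3 was measured at 32.0, 35.6 and 33.5 CPM in the normal libraries, 39.7, 36.5 and 38.4 CPM in the aging libraries and 57.2, 60.8 and 59.9 CPM in the medium libraries. All 3 medium libraries lay far above the other 6. The log2 fold change was 0.64 ± 0.056 (SE, adjusted p = 2.06e-10) in medium vs aging and 0.82 ± 0.057 (SE, adjusted p = 6.9e-13) in medium vs normal RGCs. The smaller increase in aging vs normal RGCs, 0.18 ± 0.059 (SE, adjusted p = 0.0129), was not called without normal replicate 1 (adjusted p = 0.0797) or aging replicate 1 (0.0705). Nor was it called by limma on log2(FPKM + 1) or log2(FPKM + 0.1) (adjusted p = 0.189 and 0.179). Pfkfb4 was likewise higher in medium than in aging RGCs, by 0.49 ± 0.076 (SE, adjusted p = 3.62e-06). In the medium group Pdk1 moved the other way, with 195, 208 and 201 CPM in the normal libraries, 260.5, 249 and 254 CPM in the aging libraries and 172, 185 and 181 CPM in the medium libraries. The aging libraries were highest and the medium libraries lowest, at 0.34 ± 0.036 (SE, adjusted p = 1.06e-08) in aging vs normal and -0.51 ± 0.036 (SE, adjusted p = 3.1e-12) in medium vs aging RGCs.

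The HIF alpha subunits showed opposite differences. Hif1a, the subunit that acts on most glycolytic genes (GRCm38, chr12:73901375-73947530), was measured at 377, 373 and 384 CPM in the normal libraries, 268, 256 and 269 CPM in the aging libraries and 393, 375 and 393 CPM in the medium libraries. The aging libraries lay below all others, while normal and medium libraries overlapped. It fell by 0.51 on the log2 scale in aging vs normal RGCs (SE 0.033, adjusted p = 3.48e-13) and was higher in medium vs aging RGCs by 0.55 ± 0.033 (SE, adjusted p = 6.32e-14). Epas1, which encodes HIF-2α (GRCm38, chr17:86753700-86833410), stood at 37.5, 33.3 and 38.7 CPM in the normal libraries, 46.9, 48.6 and 45.2 CPM in the aging libraries and 13.2, 13.7 and 13.5 CPM in the medium libraries. Here the aging libraries were highest and the medium libraries lowest, without overlap. The log2 fold change was 0.36 ± 0.062 (SE, adjusted p = 2.3e-05) in aging vs normal, -1.80 ± 0.072 (SE, adjusted p = 7.39e-18) in medium vs aging and -1.44 ± 0.073 (SE, adjusted p = 8.67e-16) in medium vs normal RGCs. By FPKM, Epas1 amounted to 0.074 to 0.0834 of Hif1a in the normal, 0.14 to 0.157 in the aging and 0.028 to 0.0304 in the medium libraries. Hif1a was therefore the more abundant subunit in all 9.

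Egln1 and Egln3 encode the prolyl hydroxylases PHD2 and PHD3, which sense oxygen, and are HIF targets themselves. Egln3 was measured at 125, 133 and 129 CPM in the normal libraries, 136, 149 and 142 CPM in the aging libraries and 81.0, 87.4 and 88.5 CPM in the medium libraries. The medium libraries lay below all others, at -0.73 ± 0.045 (SE, adjusted p = 8.64e-14) against aging and -0.59 ± 0.045 (SE, adjusted p = 4.46e-12) against normal RGCs. Its increase in aging vs normal RGCs, 0.14 ± 0.043 (SE, adjusted p = 0.00864), was not called without normal replicate 1 (adjusted p = 0.0538) or aging replicate 2 (0.0909). Nor was it called by limma on log2(FPKM + 1) or log2(FPKM + 0.1) (adjusted p = 0.0807 and 0.0831). Egln1 had means of 48.9 ± 3.06, 64.4 ± 2.00 and 47.7 ± 3.30 CPM in the normal, aging and medium groups (SD, n = 3). It rose by 0.40 ± 0.057 (SE, adjusted p = 1.28e-06) in aging vs normal RGCs and was lower again in medium vs aging RGCs, at -0.43 ± 0.057 (SE, adjusted p = 2.93e-07). The FPKM ratio of Egln3 to Egln1 was 3.37 to 3.68 in the normal, 2.9 to 3.1 in the aging and 2.32 to 2.5 in the medium libraries.

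P4ha1 and P4ha2 encode catalytic subunits of the collagen prolyl hydroxylase, another oxygen-dependent enzyme. P4ha1 was measured at 321, 345 and 347 CPM in the normal libraries, 294, 287 and 299 CPM in the aging libraries and 259.7, 258 and 252 CPM in the medium libraries. The groups did not overlap and the medium group was lowest, at -0.20 ± 0.034 (SE, adjusted p = 1.69e-05) in aging vs normal and -0.19 ± 0.035 (SE, adjusted p = 3.46e-05) in medium vs aging RGCs. P4ha2 had a log2 fold change of 0.047 ± 0.045 (SE, adjusted p = 0.412) in aging vs normal and of -0.34 ± 0.046 (SE, adjusted p = 3.8e-07) in medium vs aging RGCs.

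The mitophagy receptors Bnip3 and Bnip3l, which tag mitochondria for removal, were each upregulated in aging vs normal and downregulated in medium vs aging RGCs. Bnip3 stood at 189, 215 and 210.3 CPM in the normal libraries, 233, 241 and 225 CPM in the aging libraries and 197, 205 and 213 CPM in the medium libraries, so that the aging libraries were above all the others and the normal and medium libraries overlapped. The log2 fold changes were 0.19 ± 0.043 (SE, adjusted p = 0.000694) and -0.18 ± 0.043 (SE, adjusted p = 0.000711), and for Bnip3l 0.14 ± 0.035 (SE, adjusted p = 0.00205) and -0.13 ± 0.035 (SE, adjusted p = 0.0036). The Bnip3 increase in aging vs normal RGCs was not called by limma on log2(FPKM + 1) or log2(FPKM + 0.1) (adjusted p = 0.0549 and 0.0534). Against normal RGCs, the medium group differed by 0.0033 ± 0.043 (SE, adjusted p = 0.953) for Bnip3 and 0.011 ± 0.035 (SE, adjusted p = 0.808) for Bnip3l.

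Vegfa, the vascular growth factor (GRCm38, chr17:46016993-46032369), had the largest difference of any member between aging and normal RGCs. It was measured at 327, 364 and 345 CPM in the normal libraries, 218, 229 and 212 CPM in the aging libraries and 197, 214 and 214 CPM in the medium libraries. All 3 normal libraries lay above the other 6, and the aging and medium libraries overlapped. The log2 fold change was -0.65 ± 0.040 (SE, adjusted p = 1.63e-13) in aging vs normal and -0.73 ± 0.040 (SE, adjusted p = 5.69e-15) in medium vs normal RGCs. Car9, the membrane carbonic anhydrase that exports acid, stood at 9.18, 8.53 and 9.47 CPM in the normal libraries, 6.49, 7.93 and 8.25 CPM in the aging libraries and 2.52, 2.93 and 2.77 CPM in the medium libraries. The medium libraries lay far below the rest, at -1.46 ± 0.15 (SE, adjusted p = 4.53e-09) against aging and -1.72 ± 0.15 (SE, adjusted p = 6.25e-11) against normal RGCs, whereas aging vs normal RGCs gave -0.26 ± 0.13 (SE, adjusted p = 0.0995). Adm, the vasodilator adrenomedullin, had 8 counts in aging replicate 3, 1 count in normal replicate 2 and 0 in the other libraries, and was not tested.

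Of the remaining targets, Kdm3a encodes a histone H3K9 demethylase, Ankrd37 a small ankyrin-repeat protein and Ndrg1 a stress-responsive protein. Kdm3a was measured at 137, 139 and 139 CPM in the normal libraries, 185, 180.0 and 188 CPM in the aging libraries and 106, 109 and 115 CPM in the medium libraries. The aging libraries were highest and the medium libraries lowest, with no overlap between any groups. Its log2 fold change was 0.41 ± 0.037 (SE, adjusted p = 4.08e-10) in aging vs normal and -0.74 ± 0.038 (SE, adjusted p = 2.25e-15) in medium vs aging RGCs. Ankrd37 stood at 7.84, 6.74 and 7.55 CPM in the normal libraries, 6.27, 6.95 and 6.48 CPM in the aging libraries and 5.34, 4.76 and 3.94 CPM in the medium libraries. It was lower in the medium group, with log2 fold changes of -0.49 ± 0.15 (SE, adjusted p = 0.00608) against aging and -0.66 ± 0.14 (SE, adjusted p = 0.000246) against normal RGCs. For Ndrg1 the values were 258, 302 and 303 CPM in the normal libraries, 221, 261 and 231 CPM in the aging libraries and 236, 264 and 269 CPM in the medium libraries. It was downregulated in aging vs normal RGCs, at -0.27 ± 0.055 (SE, adjusted p = 0.00018), and its call in medium vs normal RGCs, -0.17 ± 0.055 (SE, adjusted p = 0.0107), was lost without normal replicate 3 (adjusted p = 0.0707) or medium replicate 1 (0.119). With DESeq2 the latter was not called either (adjusted p = 0.165).

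**Figure D4:**
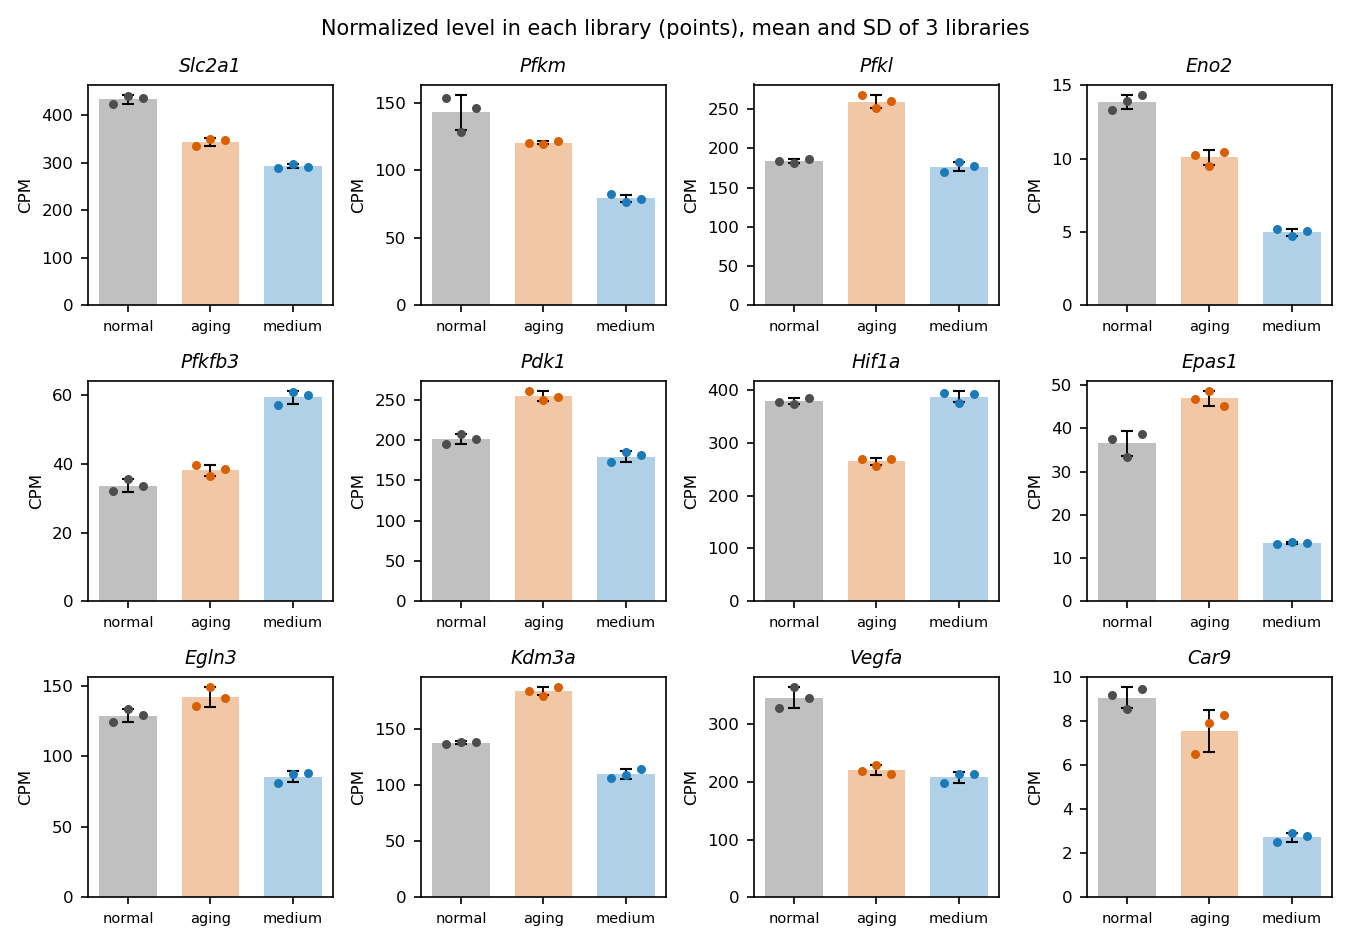
Normalized level (CPM, axis from 0) of 12 members in each library (points), with bars for the mean and error bars for the SD of 3 libraries. Pfkl, Pdk1, Epas1 and Kdm3a are highest in the aging group, Hif1a is lowest there, Pfkfb3 is highest in the medium group, and Epas1, Car9 and Eno2 are lowest in it.

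Further genes of these pathways were taken from 5 lists. The pyruvate dehydrogenase complex links glycolysis to the mitochondrial citric acid cycle. Of the 13 genes tested on pyruvate entry, 7 were upregulated and 2 downregulated in medium vs aging RGCs (27.1% and 26% of all genes). All of Pdha1, Pdhb, Dlat, Dld and Pdhx, the subunits of the complex listed and chosen here after their values were seen, were upregulated, with log2 fold changes of 0.42, 0.23, 0.28, 0.59 and 0.30 (adjusted p at most 0.000723). Pdk2, a further kinase that inhibits the complex, fell, at -1.07 ± 0.21 (SE, adjusted p = 0.000109). In aging vs normal RGCs the list gave 3 upregulated and 4 downregulated genes (23.6% and 23% of all genes), among the latter Pcx, the pyruvate carboxylase that refills the cycle, at -1.09 ± 0.074 (SE, adjusted p = 1.34e-12).

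The pentose phosphate pathway diverts glucose 6-phosphate to NADPH and ribose. In aging vs normal RGCs 2 of its 8 genes rose and 4 fell (23.6% and 23% of all genes), with Tkt (transketolase) at 0.31 and Pgd at 0.24 among the former and G6pdx, the entry enzyme, at -0.23 among the latter. Of the same 8 genes, 6 rose and 1 fell in medium vs aging RGCs (27.1% and 26% of all genes). Rpia, which makes ribose 5-phosphate, rose by 0.71 ± 0.12 (SE, adjusted p = 7.07e-06), H6pd, the dehydrogenase of the endoplasmic reticulum, by 0.64 ± 0.038 (SE, adjusted p = 3.58e-14), and Taldo1, transaldolase, by 0.47 ± 0.047 (SE, adjusted p = 1.78e-09).

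Of 17 tested genes among other glycolytic enzymes and sugar transporters, 5 were upregulated and 3 downregulated in aging vs normal, and 3 and 7 in medium vs aging RGCs. Together these were 47.1% and 58.8% of the list, against 46.5% and 53.1% of all genes. Slc2a6 rose by 1.22 ± 0.24 (SE, adjusted p = 0.000111) in aging vs normal RGCs, where Slc2a10 was at -1.06 ± 0.26 (SE, adjusted p = 0.00127). In medium vs aging RGCs, Slc2a6, Slc2a9 (a urate transporter) and Slc2a13 (the proton myo-inositol transporter) were downregulated, at -1.26, -1.15 and -1.55. Their calls held over the alternatives that kept all libraries, but their sizes ranged from -1.34 to -0.70, -1.23 to -0.73 and -1.62 to -0.57. In aging vs normal RGCs, Slc2a6 ranged from 0.64 to 1.22 and Slc2a10 from -1.09 to -0.40. Slc2a8 was lower in medium vs normal RGCs, at -1.01 ± 0.16 (SE, adjusted p = 2.83e-06).

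In the HIF machinery, 4 of 13 genes were upregulated and 2 downregulated in aging vs normal RGCs (46.2%, against 46.5% of all genes), with Egln2 (PHD1) at 0.38, Rbx1 (a subunit of the VHL ubiquitin ligase) at 0.36 and Cited2 (which competes with HIF for p300) at -0.42. The medium group had 4 higher and 4 lower than aging RGCs (61.5%, against 53.1% of all genes), which became 2 and 6 without normalization factors and 1 and 5 with limma. Hif3a, a further alpha subunit, rose by 1.505 ± 0.39 (SE, adjusted p = 0.00199) on low counts, a call not made by limma on log2(FPKM + 1) (adjusted p = 0.264).

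Other HIF targets numbered 33 tested. In aging vs normal RGCs 11 rose and 13 fell (23.6% and 23% of all genes). Angptl4, which inhibits lipoprotein lipase, rose by 1.64 ± 0.10 (SE, adjusted p = 9.79e-14), and Ddit4 (REDD1, which restrains mTORC1) fell, at -1.06. Against aging RGCs, the medium group had 3 higher and 18 lower (27.1% and 26% of all genes). Angptl4 and the nuclear receptor gene Rora fell, at -1.37 (adjusted p = 2.35e-12) and -1.40 (adjusted p = 0.00377). Over the alternatives that kept all libraries, Angptl4 ranged from -1.44 to -1.36 and Rora from -1.48 to -0.27. In medium vs normal RGCs 4 rose and 20 fell (30.6% and 29.9% of all genes), among the latter Stc1 (stanniocalcin) at -1.32 and Pgf (placental growth factor) at -1.28. These lists were described by their counts alone, and no test compared them with other genes.

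**Figure D5:**
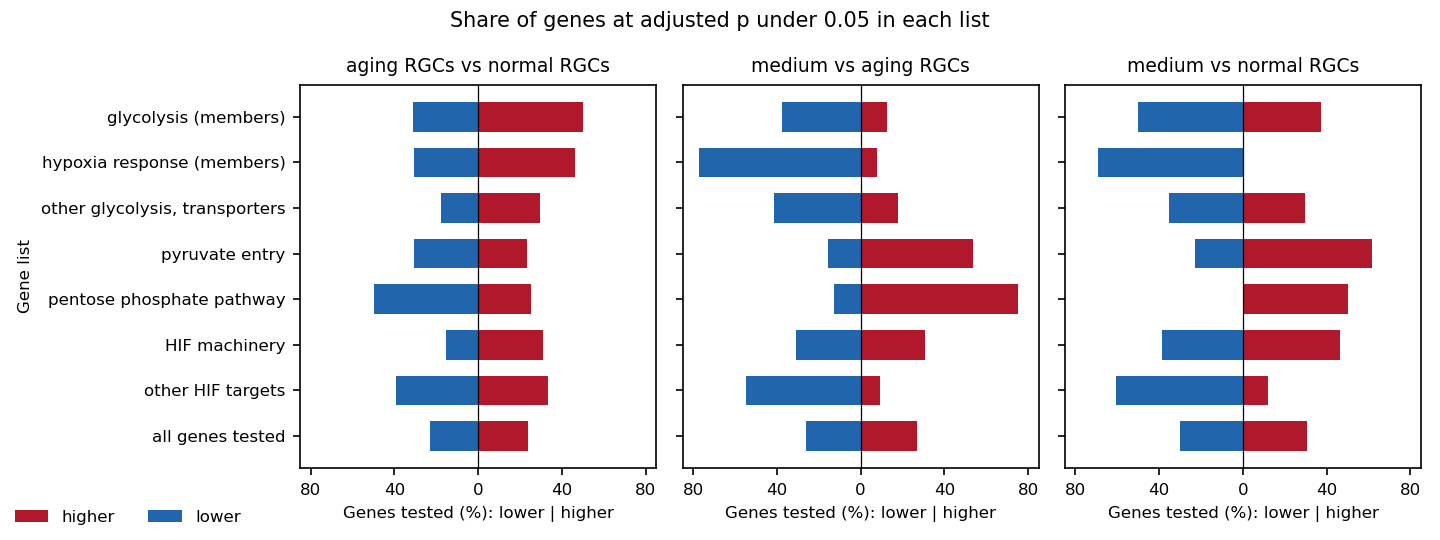
Share of tested genes (%) with an adjusted p below 0.05 (edgeR), higher to the right and lower to the left, for the glycolytic and hypoxia-response members, 5 further pathway lists and all 12145 genes tested, in each comparison. In medium vs aging RGCs, 10 of 13 hypoxia-response members and 18 of 33 other HIF targets are lower (all genes, 26%), whereas 6 of 8 pentose phosphate genes are higher (all genes, 27.1%).

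Some values rest on reads that could not be placed on 1 gene. Counts with decimals in all 9 libraries marked Pfkp, Gapdh, Eno1 and Slc16a3, and the annotation names pseudogenes of Aldoa, Gapdh, Pgk1, Pgam1, Ldha and Bnip3l. The sources used here do not state how the authors' counting divided such reads. Strand use was not stated either, so reads of a member and of a gene that overlaps it on the other strand could not be told apart. Such overlaps were annotated for Slc2a1, Hk1 (its antisense gene Hk1os), Hk2, Gpi1, Pfkm, Pfkp, both Aldoa rows and Tpi1. They were also annotated for Gapdh, Pfkfb3, Hif1a, Bnip3, Adm, Car9, Ndrg1 and Ankrd37.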

How the data were processed

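RNA was measured by poly(A)-selected sequencing in 9 libraries, 3 wells each of normal, aging and aging + USCs medium RGCs. The authors deposited 1 table of 22322 genes with an expected count and an FPKM value per library. The submitters' processing notes name the genome build mm10, and the sources used here do not state the aligner and counter. The deposited expected counts were rounded to whole numbers, genes were filtered with filterByExpr (12145 kept), TMM factors (0.9562 to 1.034) were applied, and 1 mean per group was fitted with edgeR 4.0.16 in R 4.3.3 (quasi-likelihood test, 6 residual degrees of freedom, Benjamini-Hochberg adjustment over all genes tested, threshold 0.05). CPM values are after TMM. The deposited FPKM values, which the authors scaled by transcript length and library size, were used for levels between genes, shares and ratios. Alternatives used DESeq2 1.42.0, limma 3.58.1 on log2(FPKM + 1) or log2(FPKM + 0.1), upper-quartile or no factors, no filter or a minimum of 1 CPM in 3 libraries, a fit to the 2 groups of each comparison alone, a replicate block, and each library left out in turn. The script was tested on simulated data. Gene positions are from the GRCm38 annotation.

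The members and pathway lists were chosen with earlier results of these data known. Values of every library are printed for members called with a fold change of at least 1.5 in a comparison and for the most abundant member of each role. From the other lists, genes called with at least 2-fold are named, or else up to 3 called genes with the largest change. 1 gene that this rule names is not reported here. Deviations from the group means correlated across genes at -0.05 to 0.048 for same-numbered libraries and at -0.083 to 0.089 for differently numbered ones. A pairing by replicate number was thus not visible over all genes. Such a correlation over all genes, most of it noise of counting, cannot exclude one. No 2 libraries held the same values. Wells, not animals, are the replicates.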

Additional observations from a re-analysis of the deposited data

How the results depend on the processing

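Counts of members called at an adjusted p below 0.05 stayed within 1.5 times their values under every alternative run. Taking 1.5-fold in place of 2-fold, the members called lower became 1 in aging vs normal, 6 in medium vs aging and 8 in medium vs normal RGCs, and those called higher became 1 in each comparison with the medium group. With a replicate block, medium vs aging RGCs had 7 members higher and 18 lower, Ndrg1 being gained (0.11, adjusted p = 0.0227), and in the other comparisons the block left the counts at 19 and 10 and at 11 and 20. Without normalization factors the median of all genes moved from -0.0127 to -0.1131 in medium vs normal and from -0.0067 to -0.085 in medium vs aging RGCs, and 35.8% of all calls in the latter were higher instead of 51.1% (37.7% with limma). Of 1990 log2 fold changes of members recomputed under alternatives, 1873 kept their direction and side of the threshold, 40 lost the call, 33 gained one and 44 changed sign. With upper-quartile factors, no factors, limma on log2(FPKM + 1) and limma on log2(FPKM + 0.1), the log2 fold change in medium vs aging RGCs became -0.0060, -0.0556, -0.0853 and -0.0864 for Hk1 and -0.0214, -0.0711, -0.0729 and -0.0730 for Tpi1, and in medium vs normal RGCs -0.0027, -0.0668, -0.0677 and -0.0684 for Hif1a, -0.0328, -0.0967, -0.0580 and -0.0583 for Bnip3 and -0.0253, -0.0893, -0.0882 and -0.0892 for Bnip3l. Without factors and with the 2 limma fits, medium vs aging RGCs gave -0.0015, -0.0012 and -0.0012 for Pgk1 and -0.0285, -0.0305 and -0.0305 for Eno1. Under the filter of 1 CPM in 3 libraries, Bnip3 in medium vs normal RGCs was -0.0034. Leaving out 1 library gave ranges across 0 in medium vs aging RGCs for Hk1 (-0.0028 to 0.0504), Tpi1 (-0.0201 to 0.0266), Pkm (-0.0274 to 0.0091), Slc16a3 (-0.0425 to 0.0185) and the second Aldoa row (-0.3466 to 0.3016), in medium vs normal RGCs for Bnip3 (-0.0534 to 0.0412), Bnip3l (-0.0152 to 0.0367), Egln1 (-0.0826 to 0.0172) and the second Aldoa row (-0.1275 to 0.6852), and in aging vs normal RGCs for P4ha2 (-0.0007 to 0.0774) and the second Aldoa row (-0.0387 to 0.7084). The cause of these changes was not tested. At 4 to 16 counts per library the depth limits Slc2a3, and it does not allow a test of Ldhb or Adm.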
